A study of Mus musculus with 8 samples.

Results

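The chromatin around Bhlhe40 and Bhlhe41 was examined in alveolar macrophages (AMs) that lacked the retinoid X receptors RXRα and RXRβ. ATAC-seq, in which the Tn5 transposase cuts accessible DNA, had been performed on AMs sorted from the bronchoalveolar lavage of adult C57BL/6J mice. The KO group held 4 libraries from CD11cCre+ Rxrabfl/fl mice (replicates 1_2, 1_3, 2 and 3). The WT group held 4 libraries from CD11cCre- Rxrabfl/fl littermates (replicates 1_2, 1_3, 3 and 4), so both groups carried the floxed Rxra and Rxrb alleles and differed by the Cre transgene. Cre was driven by the promoter of CD11c (Itgax), which is active in AMs and also in dendritic cells, and the animals' sex is not stated per library. Each library was deposited as 1 list of peaks. The peaks of the 8 lists were merged wherever they shared a base, which gave 82424 regions genome-wide. The members were the 42 regions that overlapped either gene or the 50 kb on each side of it, 19 at Bhlhe40 and 23 at Bhlhe41. The mouse build was mm10 (GRCm38) with GENCODE M21 gene models.

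Bhlhe40 and Bhlhe41 (also called Dec1 and Dec2) are paralogous basic helix-loop-helix transcription factors that mostly act as repressors. They bind the E-box CACGTG, the same hexamer that the circadian activators CLOCK and BMAL1 use, and they are themselves clock-controlled genes. In AMs, the pair is known for sustaining self-renewal and the cells' identity. RXRs are nuclear receptors that bind DNA as dimers, with each partner on a hexamer related to AGGTCA.

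Bhlhe40 lies on the plus strand (chr6:108660629-108666925). The first exon overlaps the start of an antisense gene, 0610040F04Rik (chr6:108577039-108660934), whose introns hold the upstream regions. Bhlhe41 lies on the minus strand of the same chromosome (chr6:145858243-145865558), between Rassf8, which ends at 145821079, and Sspn, which begins at 145931641. Below, a region is named by its gene and by the distance of its summit from the annotated transcription start, negative upstream and positive downstream along the gene's strand. The sequences of the 5 regions that differed between genotypes are shown first, as the 201 bp around the summit from the reference genome, because the comparison turns on them. Capitals mark a searched motif, and a sequence without capitals held none of the 7 motifs described further on.

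Bhlhe40 +11.7 kb, chr6:108672215-108672415, + strand: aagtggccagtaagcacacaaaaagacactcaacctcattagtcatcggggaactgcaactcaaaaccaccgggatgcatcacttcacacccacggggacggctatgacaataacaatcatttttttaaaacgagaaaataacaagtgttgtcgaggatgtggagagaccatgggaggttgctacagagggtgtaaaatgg

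Bhlhe40 +27.1 kb, chr6:108687639-108687839, + strand: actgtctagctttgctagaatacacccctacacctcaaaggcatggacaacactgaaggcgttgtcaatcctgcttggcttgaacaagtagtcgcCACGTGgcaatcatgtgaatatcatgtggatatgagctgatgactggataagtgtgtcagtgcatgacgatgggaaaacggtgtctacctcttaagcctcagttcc

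Bhlhe40 +27.9 kb, chr6:108688433-108688633, + strand: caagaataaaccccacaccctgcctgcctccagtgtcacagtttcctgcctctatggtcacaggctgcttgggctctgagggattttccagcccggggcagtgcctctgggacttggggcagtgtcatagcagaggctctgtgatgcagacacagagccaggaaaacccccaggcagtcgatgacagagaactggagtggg

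Bhlhe41 +43.1 kb, chr6:145822308-145822508, + strand: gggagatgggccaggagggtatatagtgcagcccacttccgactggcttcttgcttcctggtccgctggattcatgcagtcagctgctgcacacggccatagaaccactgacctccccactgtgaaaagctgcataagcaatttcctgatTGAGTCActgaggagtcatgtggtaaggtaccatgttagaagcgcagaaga

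Bhlhe41 +7.9 kb, chr6:145857562-145857762, + strand: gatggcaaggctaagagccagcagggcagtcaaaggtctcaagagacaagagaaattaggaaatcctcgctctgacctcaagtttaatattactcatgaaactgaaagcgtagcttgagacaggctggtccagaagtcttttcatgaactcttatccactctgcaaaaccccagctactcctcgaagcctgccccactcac

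In these sequences, the capitals at Bhlhe40 +27.1 kb are an E-box centred 2 bp from the summit, and those at Bhlhe41 +43.1 kb are an AP-1 site centred 53 bp from it. The 200 bp just before each transcription start, read along the gene's strand, are shown for comparison, because the promoter regions did not pass the test between genotypes.

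Bhlhe40 upstream, chr6:108660429-108660628, + strand: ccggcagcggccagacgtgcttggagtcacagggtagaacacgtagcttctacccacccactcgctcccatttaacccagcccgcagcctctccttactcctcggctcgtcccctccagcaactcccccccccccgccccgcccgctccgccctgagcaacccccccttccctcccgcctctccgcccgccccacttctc

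Bhlhe41 upstream, chr6:145865559-145865758, - strand: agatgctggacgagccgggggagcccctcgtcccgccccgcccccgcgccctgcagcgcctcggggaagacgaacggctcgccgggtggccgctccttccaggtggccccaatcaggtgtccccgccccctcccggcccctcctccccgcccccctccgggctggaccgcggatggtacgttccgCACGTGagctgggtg

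The Bhlhe41 stretch holds an E-box near its 3′ end. The Bhlhe40 stretch holds none, although the Bhlhe40 promoter region has an E-box a little further upstream, 76 bp from its summit.

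The labels were first checked against the peaks. A region in an intron of Rxra (chr2:27744546-27744950) had a peak in all 4 WT libraries, with 38 to 46 tags at the summit, and in 0 of the 4 KO libraries. The check rests on this region, and none is reported here for Rxrb. Of 10 AM marker genes, 9 had a promoter peak in all 8 libraries, among them Siglecf, Marco and Pparg, and Chil3 had none in any. Promoter peaks in all 8 libraries were also found for 2 of 3 monocyte markers (Ly6c2, Cx3cr1), 1 of 3 neutrophil markers (S100a8), 2 of 3 dendritic cell markers (Flt3, Zbtb46), 2 of 4 epithelial markers (Epcam, Cdh1) and 1 of 3 endothelial markers (Pecam1). None of the 3 T and NK cell markers had one, and of the 3 B cell markers only Pax5 did, in 1 library. Cdh1 is also counted by the paper among the core genes of AMs. The part of other cells in the results was not tested. The lists held 60363 to 72484 peaks, and centred levels correlated more closely within a genotype (Pearson r across regions 0.962 to 0.975) than between genotypes (0.943 to 0.955).

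Neither gene had a region that was called throughout 1 genotype and nowhere in the other. Of the 19 regions at Bhlhe40, 14 had a peak in all 8 libraries, and of the 23 regions at Bhlhe41, 18 did. At each gene, 0 regions were WT-only, meaning a peak in all WT and no KO libraries, and 0 were KO-only. Genome-wide, 0.723% of the 82424 regions were WT-only and 0.251% were KO-only, so 0 of 42 lies near the background. A missing peak means only that the threshold of the peak caller was not reached.

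**Figure D1:**
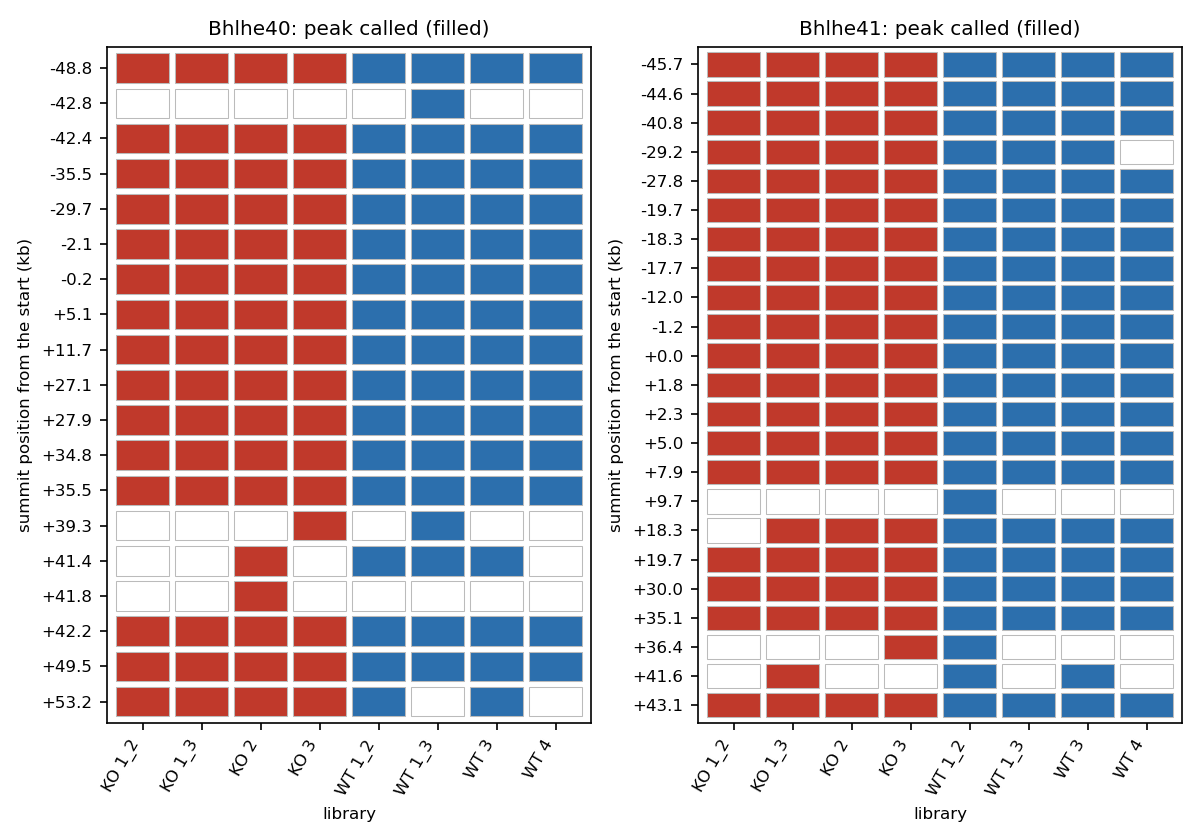
Peak calls in each library. Rows are the 19 regions at Bhlhe40 and the 23 at Bhlhe41, ordered by distance from the transcription start in kb, columns are the 8 libraries, and a filled cell (red, KO; blue, WT) is a called peak. At Bhlhe40, 14 rows are filled in all 8 libraries, and at Bhlhe41, 18.

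The remaining 10 regions lacked a peak in at least 1 library. Nearest to one-sided was Bhlhe40 +53.2 kb, with 35, 38, 30 and 33 summit tags in KO 1_2, 1_3, 2 and 3, 29 in WT 1_2, 32 in WT 3, and no peak in WT 1_3 and WT 4. Where WT peaks existed there, their tags were next to the lowest KO values. Bhlhe41 -29.2 kb had 25, 26, 17 and 17 tags in KO and 17, 22 and 21 in WT 1_2, 1_3 and 3, with no peak in WT 4. Bhlhe41 +18.3 kb went the other way, with 22, 26, 26 and 18 tags in WT, 20, 14 and 13 in KO 1_3, 2 and 3, and no peak in KO 1_2. Its WT tags were above those of KO 2 and KO 3 in 4 of 4 libraries, and the WT 4 value was below that of KO 1_3. Bhlhe40 +41.4 kb had a peak in 1 KO and 3 WT libraries, and Bhlhe41 +41.6 kb in 1 KO and 2 WT libraries. Bhlhe40 +39.3 kb and Bhlhe41 +36.4 kb each had a peak in 1 library of each genotype. Bhlhe40 -42.8 kb and Bhlhe41 +9.7 kb were seen in 1 WT library and Bhlhe40 +41.8 kb in 1 KO library, with 14, 16 and 22 tags. These 10 regions were described and not tested.

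Where every library had a peak, the level was the number of tags at the summit, the 200-bp tags that overlap a peak's highest point. Tags were worked back from the deposited fold and p-value, and the lists were not made for comparing levels across libraries, so the differences below rest on that reconstruction. For the test, log2(tags + 0.5) was centred on each library's median over the 47499 regions called in every library, so a centred level of 0 is that of a median region. Differences are KO minus WT on this scale, with the p-values of limma adjusted over all 47499 regions. They measure only the spread between these samples, since the labels leave unsaid whether replicates 1_2 and 1_3 came from separate animals. In bulk libraries, a change in the share of cells with an open region and a change in its accessibility per cell cannot be told apart.

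The 2 genes had accessible regions of all strengths. Mean summit tags ran from 24.9 to 352.5 over the 14 tested regions at Bhlhe40, with a median of 91.8, and from 16.2 to 180.4 over the 18 at Bhlhe41, with a median of 53.8. The median over all tested regions was 68.4 tags. The strongest region was the Bhlhe40 promoter, at the 97.5th percentile of all tested regions.

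**Figure D2:**
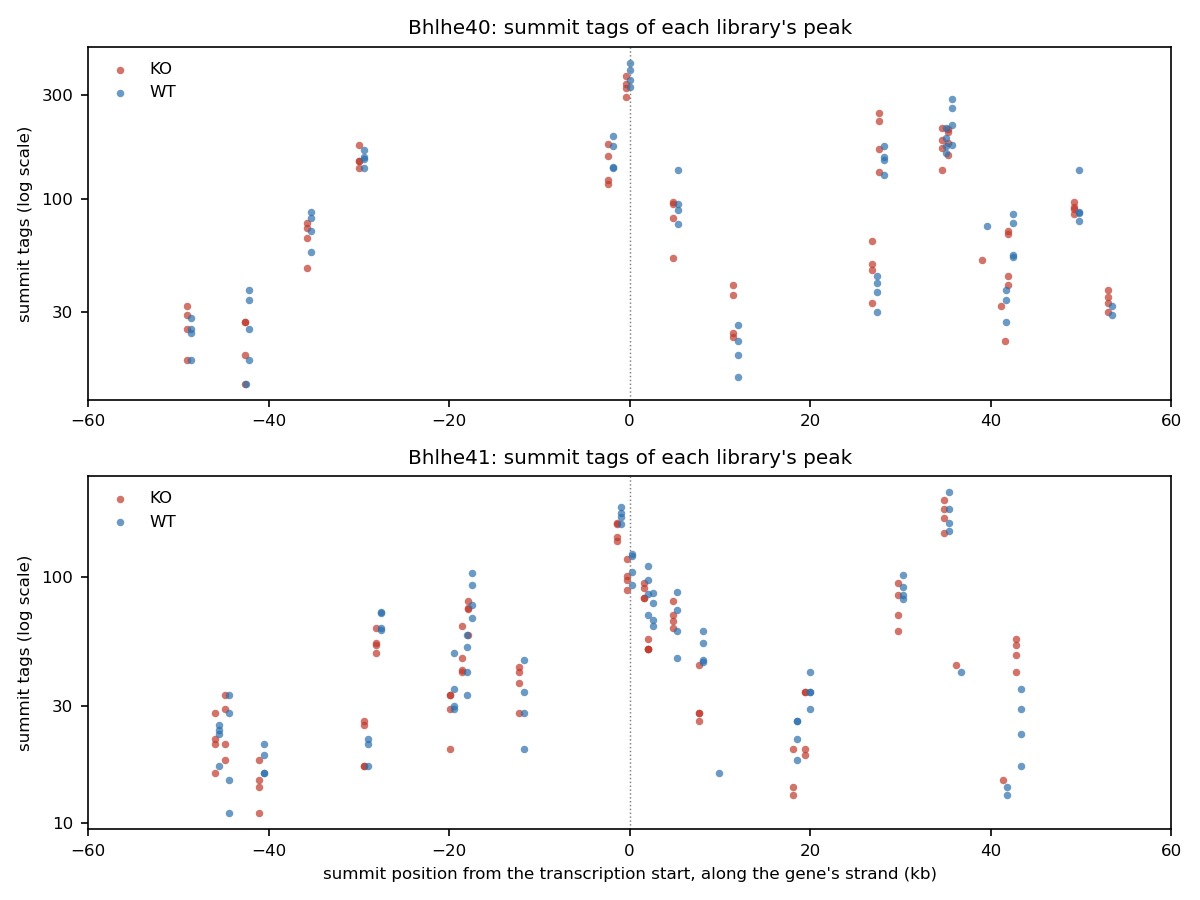
Summit tags at each region by library. The x axis is the summit's distance from the transcription start in kb along the gene's strand, the y axis is the number of summit tags on a log scale, and each point is 1 library (red, KO; blue, WT; shifted slightly apart). The Bhlhe40 promoter reaches 295 to 422 tags, and at most positions the KO and WT points overlap.

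The promoters of both genes did not pass the test. At Bhlhe40 -0.2 kb (chr6:108659258-108660789), the summit had 369, 338, 325 and 295 tags in KO 1_2, 1_3, 2 and 3 and 351, 422, 393 and 327 tags in WT 1_2, 1_3, 3 and 4. The groups overlapped, with the lowest value in KO 3 and the highest in WT 1_3, the libraries with the lowest and the highest background tag depth. The difference was 0.05 ± 0.076 on the log2 scale (SE, n = 4 and 4; 95% interval -0.11 to 0.20; limma adjusted p = 0.749). A second region upstream, Bhlhe40 -2.1 kb, lies in an exon of the noncoding transcript Gm17055 and an intron of the antisense gene. It had 158, 179, 122 and 117 tags in KO and 140, 194, 175 and 139 in WT, again with overlapping groups (0.04, 95% interval -0.16 to 0.24; limma adjusted p = 0.855).

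At Bhlhe41, a region over the start itself was followed by a stronger one further upstream, which counts as a promoter region here because its summit lies within 1 kb of the start in at least 1 library. Bhlhe41 +0.0 kb (chr6:145865328-145865860, summit in the 5′ UTR) had 118, 97, 101 and 88 tags in KO and 121, 105, 124 and 93 in WT, and the groups overlapped. The difference was 0.08 ± 0.117 (SE; 95% interval -0.15 to 0.32; limma adjusted p = 0.701). Bhlhe41 -1.2 kb (chr6:145865956-145866947) had 165, 163, 140 and 145 tags in KO and 164, 181, 192 and 175 in WT. These groups overlapped by 1 tag only, but after centring the KO libraries (1.22 to 1.34) lay inside the range of the WT libraries (0.99 to 1.54). The difference was -0.003 ± 0.098 (SE; 95% interval -0.20 to 0.19; limma adjusted p = 0.988). The intervals at the 2 strongest promoter regions leave room for a log2 difference of up to about 0.20 either way at Bhlhe41 -1.2 kb and from -0.11 to 0.20 at Bhlhe40 -0.2 kb.

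Of the 14 regions tested around Bhlhe40, 3 rose in KO AMs (21.4%) and 0 fell, and the 3 lie downstream of the gene. Genome-wide, 5.81% of tested regions were higher in KO and 7.03% were lower by the same rule, limma's adjusted p under 0.05. At an unadjusted p under 0.05, 4 of the 14 were higher and 0 lower, against 14.1% and 12.1% of all tested regions. The median difference over the 14 regions was 0.09, with 10 positive and 4 negative, against a median of 0.04 over all tested regions. All 3 are intergenic, and Bhlhe40 +27.1 kb and Bhlhe40 +27.9 kb are close neighbours. Scaling libraries to their background depth kept 2 of the 3. Under that scaling, the genome-wide split of calls moved from 2759 higher and 3337 lower to 575 and 1988. The call at Bhlhe40 +27.1 kb was lost in 9 of 16 alternative settings, background depth scaling among them. The other calls held in all 16.

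Bhlhe40 +11.7 kb (chr6:108672137-108672484) was a weak region, at the 12.9th percentile of mean tags. The summit had 40, 36, 23 and 24 tags in KO 1_2, 1_3, 2 and 3 and 19, 26, 22 and 15 in WT 1_2, 1_3, 3 and 4. WT 1_3, the library with the longest list, exceeded KO 2 and KO 3 in tags, but on the centred scale the groups did not overlap (KO -1.36 to -0.76, WT -1.96 to -1.73). The level was 1.71-fold higher in KO (log2 0.77 ± 0.194 SE, n = 4 and 4, 95% interval 0.38 to 1.16; limma adjusted p = 0.00447). The call held in all 16 alternative settings, with differences of 0.67 to 0.87.

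Bhlhe40 +27.9 kb (chr6:108688154-108688929) was one of the strongest regions of the locus, at the 84th percentile of mean tags. The summit had 249, 229, 133 and 170 tags in KO and 129, 175, 151 and 155 in WT. KO 1_2 and KO 1_3 stood far above every WT library, KO 3 was just below the highest WT library and KO 2 was among the WT values, so the groups overlapped. After centring, KO ranged from 1.14 to 1.86 and WT from 0.88 to 1.36, and 3 of 4 KO libraries were above all WT libraries. The level was 1.45-fold higher in KO (log2 0.53 ± 0.112 SE, 95% interval 0.31 to 0.76; limma adjusted p = 0.000608), and the call held in all 16 settings (0.41 to 0.79). The lowest of these values came from averaging replicates 1_2 and 1_3 into 1 sample.

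Its neighbour Bhlhe40 +27.1 kb (chr6:108687583-108687936), the region with the E-box at its summit, had 50, 64, 33 and 47 tags in KO and 37, 44, 30 and 41 in WT. Each KO library but KO 2 exceeded all WT libraries in tags. The level was 1.45-fold higher in KO (log2 0.54 ± 0.177 SE, 95% interval 0.18 to 0.89; limma adjusted p = 0.0353), with overlapping groups after centring (KO -0.85 to -0.07, WT -1.29 to -0.54). This call was lost in 9 of 16 settings. Leaving out 1 library ended it for KO 1_2 (adjusted p = 0.0615), KO 1_3 (0.153), KO 3 (0.103), WT 1_2 (0.0592), WT 1_3 (0.079) and WT 3 (0.151), with limma differences of 0.42 to 0.55 in these fits. It was also lost with background depth scaling (0.48, limma adjusted p = 0.209), with summed peaks (0.53, limma adjusted p = 0.0771) and with replicates 1_2 and 1_3 taken as 1 sample (0.48, limma adjusted p = 0.123).

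**Figure D3:**
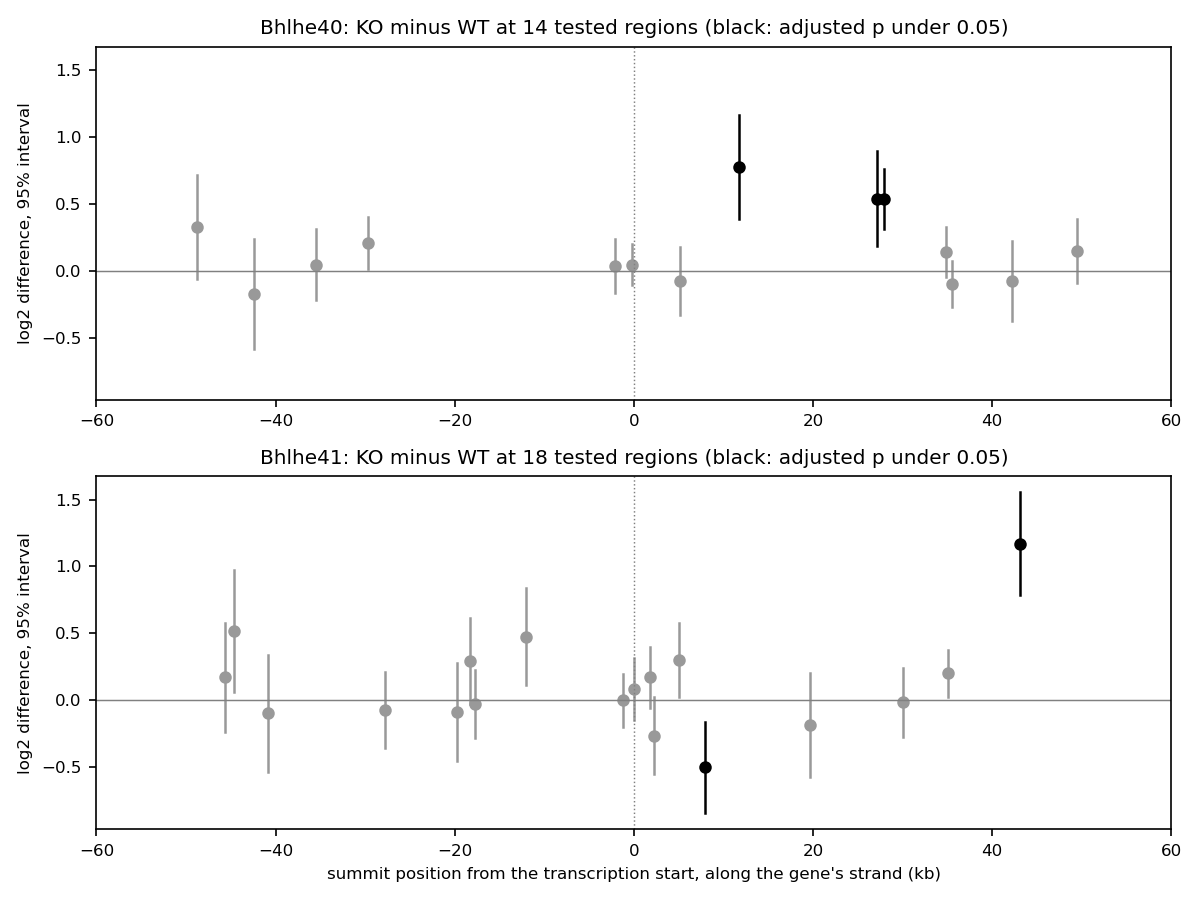
Differences between genotypes at the 32 tested regions. Points are KO minus WT log2 differences of the centred summit level, lines are 95% intervals, the x axis is the distance from the transcription start in kb, and black marks an adjusted p under 0.05. At Bhlhe40 the 3 black points lie between 11.7 and 27.9 kb downstream, and at Bhlhe41 they lie at 7.9 kb (below 0) and 43.1 kb (above 0).

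The other strong regions of the Bhlhe40 locus did not pass the test. Bhlhe40 +34.8 kb had 212, 187, 172 and 136 tags in KO and 174, 211, 190 and 162 in WT (0.14 ± 0.092 SE, limma adjusted p = 0.337). Bhlhe40 +35.5 kb had 210, 203, 181 and 159 in KO and 219, 289, 262 and 177 in WT (-0.10 ± 0.086 SE, limma adjusted p = 0.487). Both had overlapping groups, and the signs of their differences were opposite although their summits are neighbours. Bhlhe40 -29.7 kb, in an intron of the antisense gene, had 149, 176, 149 and 139 tags in KO and 156, 168, 152 and 139 in WT (0.21 ± 0.096 SE, limma adjusted p = 0.157). The peak over the 3′ UTR, Bhlhe40 +5.1 kb, had 96, 94, 81 and 53 tags in KO and 94, 136, 89 and 76 in WT (-0.07 ± 0.127 SE, limma adjusted p = 0.757). Over all 11 regions that did not pass, differences ran from -0.17 to 0.33.

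At Bhlhe41, 1 region rose and 1 fell out of 18 tested, 5.56% each way, next to the genome-wide 5.81% and 7.03%. The median difference was 0.04, with 9 regions positive and 9 negative. At an unadjusted p under 0.05, 5 of the 18 were higher and 1 was lower, against the same 14.1% and 12.1% genome-wide.

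The region that rose, Bhlhe41 +43.1 kb (chr6:145822210-145822599), lies 1131 bp beyond the annotated 3′ end of Rassf8, a Ras-association domain protein gene, and far downstream of Bhlhe41. The nearest annotated transcription start is that of a short Rassf8 transcript. The summit had 56, 41, 53 and 48 tags in KO 1_2, 1_3, 2 and 3 and 35, 29, 17 and 23 in WT 1_2, 1_3, 3 and 4. All 4 KO libraries were above all 4 WT libraries, in tags and after centring (KO -0.70 to -0.18, WT -2.09 to -0.99). The level was 2.25-fold higher in KO (log2 1.17 ± 0.191 SE, n = 4 and 4, 95% interval 0.78 to 1.55; limma adjusted p = 1.57e-05). The call held in all 16 settings, with differences of 0.98 to 1.35, the lowest without WT 3. Levels of Rassf8 or Bhlhe41 RNA were not analysed here.

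The region that fell, Bhlhe41 +7.9 kb (chr6:145857407-145857970), lies just behind the 3′ end of Bhlhe41. The summit had 28, 44, 28 and 26 tags in KO and 45, 60, 54 and 46 in WT. All KO values were below all WT values, KO 1_3 by only 1 tag, and after centring KO 1_3 (-0.60) reached into the WT range (-0.63 to -0.38). The level was 1.42-fold higher in WT (log2 -0.50 ± 0.170 SE, 95% interval -0.85 to -0.16; limma adjusted p = 0.0413). This call was lost in 11 of 16 settings. Leaving out any 1 library except KO 1_3 ended it, with limma adjusted p of 0.139 without KO 1_2, 0.0881 without KO 2, 0.0976 without KO 3, 0.0532 without WT 1_2, 0.0583 without WT 1_3, 0.103 without WT 3 and 0.0868 without WT 4. The sign was negative in every setting (-0.64 to -0.42).

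**Figure D4:**
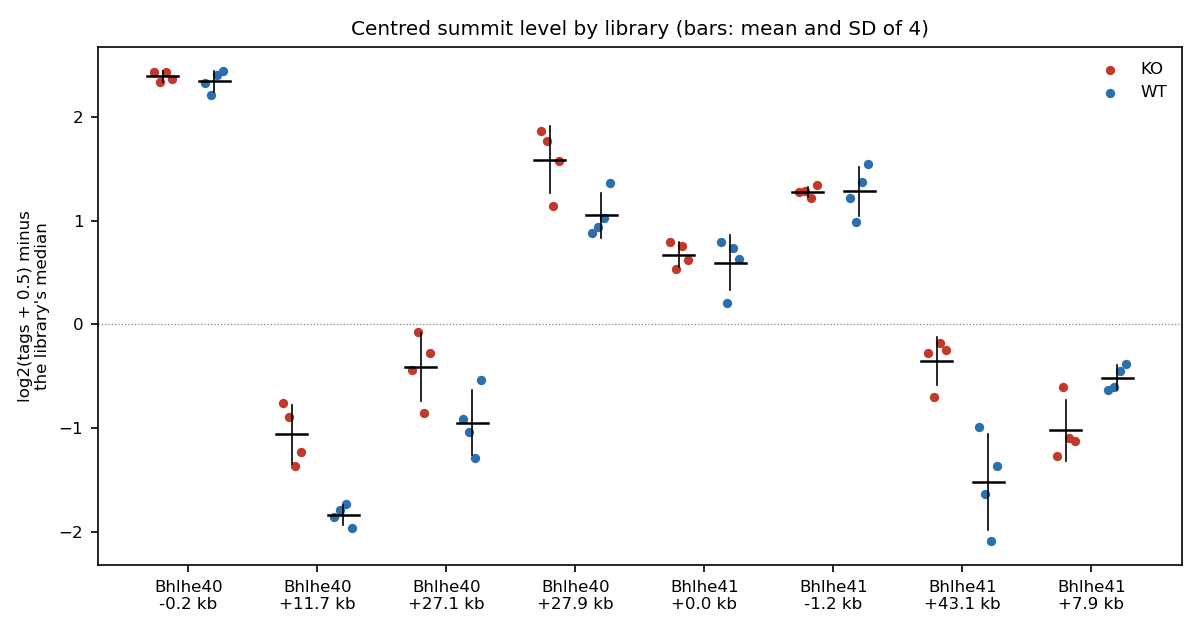
Centred summit levels of the 8 libraries at the promoter regions and at the 5 called regions. The y axis is log2(tags + 0.5) minus the library's median, points are libraries (red, KO; blue, WT), and bars give the mean and SD of 4. KO and WT points separate fully at Bhlhe40 +11.7 kb and Bhlhe41 +43.1 kb and overlap at the others.

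Among the other Bhlhe41 regions, the strongest was Bhlhe41 +35.1 kb, with 205, 189, 173 and 150 tags in KO and 165, 220, 188 and 153 in WT. The groups overlapped in tags and did not overlap after centring (KO 1.39 to 1.58, WT 1.23 to 1.34), but the difference of 0.20 ± 0.088 (SE) did not pass the test (limma adjusted p = 0.132). Bhlhe41 +30 kb had 84, 94, 60 and 70 tags in KO and 81, 91, 102 and 84 in WT (-0.02 ± 0.128 SE, limma adjusted p = 0.951). Inside the gene, Bhlhe41 +1.8 kb, in the 3′ UTR of a short isoform, had 94, 90, 82 and 82 tags in KO and 85, 111, 97 and 70 in WT (0.17 ± 0.114 SE, limma adjusted p = 0.351). The groups overlapped in tags at both, and after centring they overlapped at +30 kb and not at +1.8 kb (KO 0.42 to 0.52, WT 0.22 to 0.39).

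Bhlhe41 -44.6 kb, on the Sspn side, showed the largest difference among regions that did not pass. The summit had 18, 33, 21 and 29 tags in KO and 15, 33, 28 and 11 in WT, with overlapping groups and a wide spread in each. The difference was 0.52 ± 0.226 (SE; limma adjusted p = 0.129), and without KO 1_2 it was 0.70 and passed (limma adjusted p = 0.0458). Over all 16 regions that did not pass at Bhlhe41, differences ran from -0.27 to 0.52.

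Setting each called region against a promoter region of its own gene in the same library gave values that do not depend on the scaling of libraries. Bhlhe40 +27.9 kb reached 67.5%, 67.8%, 40.9% and 57.6% of the promoter's tags in KO 1_2, 1_3, 2 and 3 and 36.8%, 41.5%, 38.4% and 47.4% in WT 1_2, 1_3, 3 and 4, or 58.4% ± 12.6 and 41% ± 4.69 (SD, n = 4 each). KO 2 lay among the WT values and the other KO libraries above them. Bhlhe40 +11.7 kb reached 9.18% ± 1.86 in KO and 5.44% ± 0.651 in WT, with the lowest KO value (7.08%) above the highest WT value (6.16%). Bhlhe40 +27.1 kb reached 14.6% ± 3.72 and 10.3% ± 2.02, with overlapping groups. Set against Bhlhe41 -1.2 kb, Bhlhe41 +43.1 kb reached 33.9%, 25.2%, 37.9% and 33.1% in KO and 21.3%, 16%, 8.85% and 13.1% in WT, and the groups did not overlap. Bhlhe41 +7.9 kb reached 20.5% ± 4.53 in KO and 28.7% ± 3.03 in WT, with KO 1_3 (27%) inside the WT range. The regions were chosen for a difference in these same tags, and the promoter regions they were set against did not pass the test. The ratios therefore largely restate the calls and give no separate support for them. These ratios were not tested.

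Both strands of the 100 bp on each side of the summits were searched for 7 motifs, and the counts were not compared by a test. An E-box, CACGTG, was found in 2 of 19 regions at Bhlhe40 and 6 of 23 at Bhlhe41, against 5.22% of all 82424 regions. At Bhlhe40 these were the promoter and +27.1 kb. At Bhlhe41 they were the region over the start (36 bp from the summit), -1.2 kb (1 bp), +1.8 kb (61 bp), -29.2 kb (58 bp), +36.4 kb (1 bp) and +9.7 kb, which held 2 of them. Of these 6, +36.4 kb had peaks in 2 libraries and +9.7 kb in 1.

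For RXR dimer elements, 2 spacings were searched. DR1, with AGGTCA repeated after a spacer of 1 base and up to 2 mismatches allowed, was found in 0 of the 42 regions (4.14% of all regions), which says only that these letters are not in these windows. DR4, with a spacer of 4 bases and the same allowance, was found at Bhlhe40 +35.5 kb and Bhlhe41 +5.0 kb (2.68% of all regions), both of which did not pass the test.

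Of the motifs of macrophage factors, PU.1 (GAGGAAGT) was found in 5 regions at Bhlhe40 and 3 at Bhlhe41 (10.5% of all regions). C/EBP (TTGCNNAA) was found in 0 regions at Bhlhe40 and 6 at Bhlhe41 (14.5%). RUNX (TGTGGTT) was found in 2 and 3 (8.87%) and AP-1 (TGAGTCA) in 1 and 3 (9.31%). The C/EBP and RUNX matches at Bhlhe41 +19.7 kb overlap. A match is a run of letters and not a bound site. The searched windows at the 2 genes had a median GC content of 50.7% and 52.2%, next to 50.2% over all regions. Among the Bhlhe41 windows with an E-box, GC content was 74.1% at +0.0 kb, 73.1% at -1.2 kb and 65.7% at +9.7 kb. The other E-box windows had 60.7% at +1.8 kb, 54.2% at -29.2 kb and 53.2% at +36.4 kb. The values at -29.2 kb and +36.4 kb were near the median of the gene's windows. Bhlhe41 +2.3 kb, which held no E-box, had 73.6%. The part of GC content in the E-box counts was not tested.

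Other genes of the clock and of the E-box factors were described in the same way, by all regions within 50 kb. The 16 clock genes, which include Arntl, Clock, the Per and Cry genes and Rora, had 134 tested regions, of which 4 were higher in KO (2.99%) and 11 lower (8.21%), with a median difference of 0.05. Rora, an activator of Arntl that binds AGGTCA elements, held 5 of the 11 lower regions out of 10 tested. The 11 other E-box binding factors, such as Usf1, Mitf and Myc, had 113 tested regions, 1 higher (0.885%) and 2 lower (1.77%). The 10 macrophage lineage factors, such as Spi1 and Cebpa, had 141 tested regions, 9 higher (6.38%) and 12 lower (8.51%). Bhlhe40, with 3 higher and 0 lower of 14, had a larger share of higher regions than each list, and these shares were not compared by a test.

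Across the 8 libraries, the promoters whose centred levels followed those of the members most closely were found among 11696 promoters. For Bhlhe40 they were Commd4 (Pearson r = 0.979), the AP-1 subunit gene Fos (0.978), Gcdh (0.965), B4galt5 (0.965) and Sbno1 (0.965). For Bhlhe41 -1.2 kb they were Rps19bp1 (0.992), Gnl2 (0.971), C030006K11Rik (0.969), Dvl3 (0.965) and Tor4a (0.963). The 2 members correlated with each other at 0.765. The highest of 11696 values over 8 libraries are high by selection, and all points share the libraries and their depths.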

How the data were processed

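ATAC-seq libraries of AMs, 4 KO and 4 WT, were used as 1 peak list each, with groups and replicate names from the sample titles. The authors used Cutadapt for trimming, Bowtie2 for alignment to mm10, filters on duplicates, pairing and mapping quality, and MACS3 for peaks (reads shifted and extended to 200 bp, q-value threshold 0.05). The fold in the deposited lists is the ratio of the summit pileup to the local background, each with 1 added, and the −log10 p and −log10 q values deposited by the authors come from a Poisson model of the same quantities. The deposited score, a display number of the authors' peak caller, was not used.

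Summit tags were the whole number for which fold and −log10 p agree. A whole number was found for 100% of peaks in each list, within a relative error of 1e-05 in p. Depth was known only through the lists: the lowest background in each list was 1.12 to 2.26 tags per 200 bp. The smallest summits held 6 to 9 tags, so weaker regions were not detectable. Local background was higher at some regions, with 33.8 to 53.1 tags at Bhlhe40 -0.2 kb. Deeper libraries reach the threshold at lower enrichment, so list length can shift peak calls. Within a region, a library's highest summit was used. Log2(tags + 0.5), median-centred, was fitted with limma 3.58.1 (moderated, trend, Benjamini-Hochberg) in R 4.3.3 over 47499 regions, with the 2 genotypes as groups. The fit was tested on simulated data. The authors' read counts and their edgeR test were not used here.

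Named regions were those with a summit within 1 kb of a start in any library, the called ones, those whose library counts differed by 3 or more between genotypes (0 found), and the strongest and most different of each locus. Regions outside that rule were chosen after their values were seen. The members and gene lists were chosen with earlier results of these data known. Sequences came from the RefSeq copy of GRCm38. Alternatives covered windows, merging, thresholds, scaling, pseudocount and leaving out libraries. Replicate numbers 1_2, 1_3 and 3 occur in both genotypes, and nothing says that they mark a shared litter or day.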

Additional observations from a re-analysis of the deposited data

How the results depend on the processing

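The window set the number of regions: 20 kb gave 4 at Bhlhe40 and 13 at Bhlhe41, and 100 kb gave 35 at Bhlhe40. With all lists reduced to 60363 peaks, 1 region became KO-only at Bhlhe41, the -29.2 kb region. The number of regions called higher at Bhlhe41 was 1 to 2 when 1 library was left out (2 without KO 1_2). The number called lower there was 0 with background depth scaling, 0 with the summed peaks of a region, 0 with the replicate block and 0 in the same 6 libraries without the block, an alternative chosen after seeing the data, and 0 to 1 when 1 library was left out. The causes were not tested. No difference at a named region that passed the test changed sign in any alternative.

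The main test did not take the replicate numbers as pairs. Deviations of same-numbered libraries from their group means correlated at 0.056, 0.116 and 0.037 for replicates 1_2, 1_3 and 3. Values for libraries of different number were not set beside them, so these correlations cannot decide whether the numbers mark pairs. With the replicate block on 6 libraries, 3608 regions genome-wide were higher and 3296 lower, against 2509 and 2763 in these 6 libraries without it. Bhlhe40 +27.1 kb was then 0.82 (limma adjusted p = 0.000593), and 0.82 in the same 6 libraries without the block (limma adjusted p = 0.00146). With replicates 1_2 and 1_3 as 1 sample it was 0.48 (limma adjusted p = 0.123).

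Summit tags limit what can be seen: regions under about 6 to 9 tags are not in the lists, and weak regions carry larger errors (SE 0.226 at Bhlhe41 -44.6 kb, 0.076 at the Bhlhe40 promoter).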
